A study of Mus musculus with 9 samples.

Results

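The genes described here drive or mark cell division, or share its nomenclature: cyclins, cyclin-dependent kinases (CDKs) and their inhibitors, replication licensing factors, mitotic kinases, checkpoint proteins, centromere proteins, condensins and kinesins, with Mki67 and Wee1. They were chosen by gene symbol alone, as every row of the count table whose mouse symbol begins with the family stems Kif, Cenp, Aurk, Plk, Ncap, Mcm, Cdc, Cdk (without Cdkl and Cdkal), Bub or Mad2, or with Ccna, Ccnb, Ccnd, Ccne, Ccnf or Ccng, plus Mki67 and Wee1. Of 14052 genes in the table, 158 met the rule. Top2a is named by the same rule and is not analysed here. RNA came from the renal cortex of mice raised to about 1 year of age. The tumour group has 5 areas (L4, R2, R3, R4 and R5) from VhlF/F Pbrm1F/F Ksp-Cre mice on a mixed background of C57BL/6, BALB/c and 129. The normal group holds 4 cortex areas (L1, L2, R1 and R2) of wild-type C57BL/6 mice. Cre is driven by the Ksp promoter, that of the kidney tubule cadherin gene Cdh16, so Cre acts in tubule cells and is not meant to act in the other cells of a tumour area. All animals were fed a normal diet.

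The libraries held 5143527 to 8250261 counted reads. The sample descriptions hold 1 number per group, and it is possible that each group came from 1 animal. The p-values then measure the spread between areas, and genotype, strain, animal and tumour cannot be told apart. Of all genes in the table, 3989 (28.4%) were at 0 throughout, and so were 19 of the 158 described here (12.03%). A gene listed at 0 may therefore still be expressed. In the marker lists, the proximal tubule genes summed to 24483 to 44849 CPM in the tumour areas against 56100 to 58039 CPM in normal cortex, so transcripts of the labelled tissue were present in both groups.

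A dividing cell passes through a set order of steps. Cyclins bind and activate CDKs, and CDK inhibitors hold them back. In G1, cyclin D and cyclin E open the way to S phase, when the MCM helicase unwinds DNA for replication. In mitosis, CDK1 with cyclin B, the Aurora and Polo kinases and motor proteins of the kinesin family build the spindle, the centromere proteins attach chromosomes to it, and the spindle checkpoint delays the anaphase-promoting complex (APC/C) until all are attached. Many genes of these late steps peak together in G2 and mitosis. They are under the control of the DREAM and MuvB complexes, which bind a short promoter element called the CHR, often beside CCAAT boxes bound by NF-Y. Adult kidney tubule cells divide rarely. Many kinesins and several proteins named Cdk or Cdc have other work, such as carrying cargo along microtubules, building cilia, transcription or splicing.

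Most tested genes that act in mitosis, and several of S phase, were higher in the tumour areas, while 9 of 16 kinesins of transport, 3 of 4 transcription CDKs and 5 of 7 genes that only share a Cdc name were lower. Of the 158 genes, 102 had enough counts to test, 37 fell below the filter on low counts and 19 were at 0. By edgeR's quasi-likelihood test, 57 of the 102 (55.9%) were called higher in tumour at the threshold of an adjusted p under 0.05 and 27 were lower (26.5%). Over all 7020 tested genes, 39.3% were higher and 35.3% lower, 74.6% in all. The counts given for single lists are to be read beside these shares. At least 2-fold increases numbered 33 (32.4%), against 17.3% of all tested genes, and at least 2-fold decreases numbered 9 (8.82%), against 12.6%. The median log2 fold change was 0.41 over the 102 genes and 0.06 over all tested genes. All 5 tumour areas lay above all normal areas in 51 genes (50%), against 34.8% of all tested genes, and below them in 26 (25.5%), against 33.0%. In either direction, the groups did not overlap in 67.8% of all tested genes. Genes that passed the filter through the group in which they are high had to differ, so these counts describe the tested genes and not all 158. The same limit holds for the counts and medians of single lists.

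**Figure D1:**
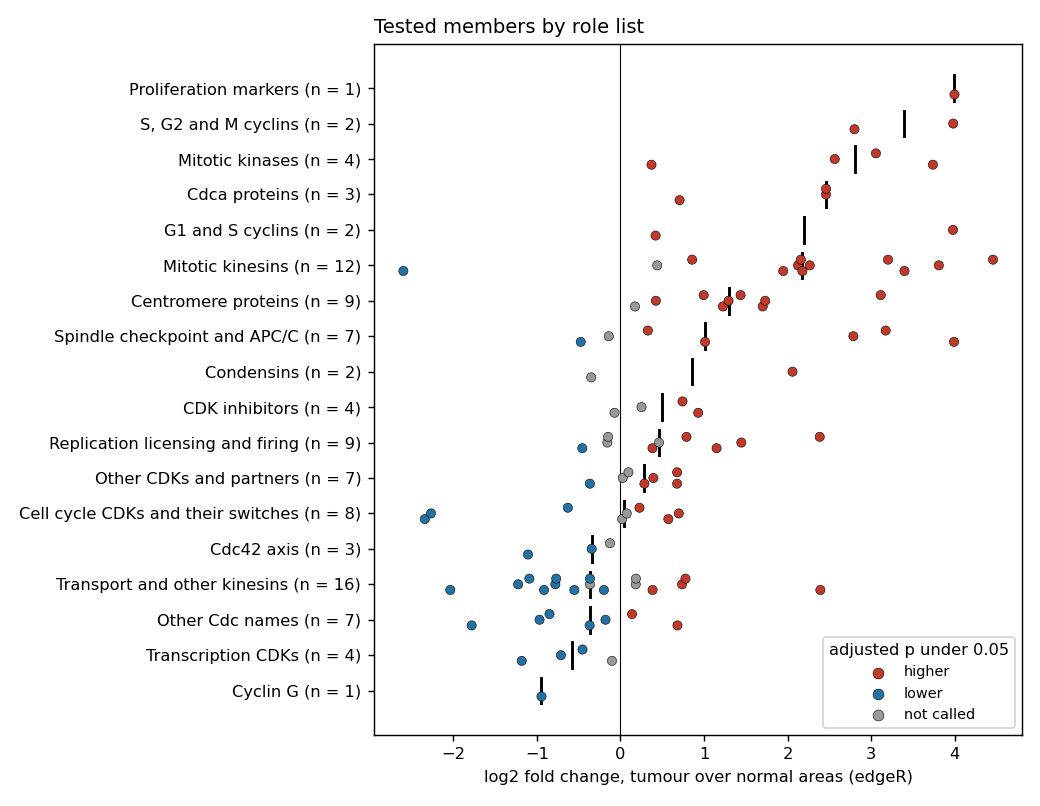
Log2 fold change (tumour over normal areas, edgeR) of each tested gene by role list, coloured by call at an adjusted p under 0.05, with a vertical bar at the list's median and the number of tested genes in parentheses. The lists of mitosis lie to the right, with medians of 2.17 for mitotic kinesins and 2.81 for mitotic kinases, while transport kinesins have a median of -0.36.

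Values are read counts relative to library size (CPM, with libraries scaled by TMM factors). Areas are always given in the order L4, R2, R3, R4, R5 for tumour and L1, L2, R1, R2 for normal cortex. An error after a CPM mean is the SD over 5 tumour or 4 normal areas, and an error after a log2 fold change (positive where tumour areas are higher) is the standard error of the edgeR fit. Adjusted p-values come from edgeR with Benjamini-Hochberg adjustment over all tested genes. CPM are not divided by gene length, so levels are compared between areas and not between genes.

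Mki67 (ENSMUSG00000031004) encodes a protein that coats mitotic chromosomes and is the usual marker of cycling cells. It stood at 61.8, 66.1, 43.2, 42.3 and 54.9 CPM in the tumour areas and at 2.16, 2.86, 3.99 and 4.45 CPM in normal cortex. R2 and L4 were highest and R3 and R4 lowest, and even the lowest tumour area was far above every normal area. The means were 53.7 ± 10.8 and 3.37 ± 1.04 CPM, a 15.9-fold rise (3.99 ± 0.22, adjusted p = 2.03e-07 in edgeR). In bulk tissue, a change in the number of cells of a type and a change in RNA per cell cannot be told apart. A rise of this kind therefore does not say how many cells were dividing.

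Both tested cyclins of G1 and S were called higher. Ccne1 (ENSMUSG00000002068), cyclin E1, which activates CDK2 at the entry to S phase, stood at 11.3, 9.90, 7.81, 6.39 and 8.22 CPM in the tumour areas and at 1.298, 0.136, 0.332 and 0.607 CPM in the normal areas. The groups were well apart, and L1 was the highest normal area, with 6 of 12 counts. Ccne1 rose 15.8-fold (3.98 ± 0.40, adjusted p = 8.31e-06 in edgeR), and its log2 fold change was 4.63 without normal L1. Ccnd1 (ENSMUSG00000070348), cyclin D1, the partner of CDK4 and CDK6, was abundant in every library. It stood at 1061, 1927, 1529, 1816 and 1137 CPM in the tumour areas and at 1090.5, 1146, 1093 and 1134 CPM in normal cortex. Tumour areas R2, R4 and R3 were high, while L4 and R5 were level with normal cortex, so the groups overlapped. The difference, 0.42 ± 0.17, passed narrowly (adjusted p = 0.0452 in edgeR). Without any single normal area, or without tumour R2, R3 or R4, it did not pass (adjusted p = 0.0715 to 0.0978). Ccne2 held few counts in both groups, and Ccnd3 was listed at 0.

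Among cyclins of G2 and mitosis, Ccnb2 (ENSMUSG00000032218), a B-type cyclin that partners CDK1, stood at 8.49, 12.2, 10.3, 8.42 and 5.78 CPM against 1.73, 1.09, 0.997 and 1.42 CPM. R2 was highest and R5 lowest among the tumour areas, and the groups did not overlap. Ccnb2 rose 6.97-fold (2.80 ± 0.28, adjusted p = 7.14e-06 in edgeR). Ccnf, cyclin F, a substrate receptor of a ubiquitin ligase rather than a CDK activator, rose from 0.640 ± 0.319 to 10.03 ± 1.96 CPM (3.98 ± 0.29). Its tumour values ran from 7.76 CPM in R5 to 12.4 CPM in L4. Ccna1 and Ccnb1 held 1 count each over all libraries, and Ccnb3 was listed at 0. Ccnb1 has near-identical copies in the genome, with which it can share reads.

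Cyclin G went the other way. Ccng1 (ENSMUSG00000020326), a target of p53 that restrains growth after DNA damage, stood at 605, 721, 725, 761 and 618 CPM in the tumour areas and at 1368, 1304, 1291 and 1336 CPM in the normal areas. The normal areas were close to each other, and all tumour areas were well below them. Ccng1 fell 1.93-fold (-0.95 ± 0.08, adjusted p = 2.2e-06 in edgeR). Ccng2 was listed at 0.

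Promoter windows from RefSeq (GRCm38.p6), from 250 bases before to 50 bases after the annotated start, were found for 136 of the 158 genes. They were searched on both strands for TTTGAA (the core letters of the CHR), for CCAAT and for the E2F letters TTTCGCGC or TTTGGCGC. The 7 windows that follow are printed 5′ to 3′ on the gene's strand, with the letters of any match in capitals. A match on the opposite strand appears as its reverse complement. Mki67, Plk1, Ccnb2, Kif22 and Kif15 are shown because they rose at least 2-fold and hold TTTGAA. Kif20b is shown because it holds TTTGAA and fell, and Ccng1 because it fell and does not hold it. The windows are chr7:135716330-135716629 (minus strand) for Mki67, chr7:122159185-122159484 (plus strand) for Plk1, chr9:70421505-70421804 (minus strand) for Ccnb2, chr7:127042371-127042670 (minus strand) for Kif22, chr9:122950831-122951130 (plus strand) for Kif15, chr19:34922108-34922407 (plus strand) for Kif20b and chr11:40755237-40755536 (minus strand) for Ccng1.
Mki67: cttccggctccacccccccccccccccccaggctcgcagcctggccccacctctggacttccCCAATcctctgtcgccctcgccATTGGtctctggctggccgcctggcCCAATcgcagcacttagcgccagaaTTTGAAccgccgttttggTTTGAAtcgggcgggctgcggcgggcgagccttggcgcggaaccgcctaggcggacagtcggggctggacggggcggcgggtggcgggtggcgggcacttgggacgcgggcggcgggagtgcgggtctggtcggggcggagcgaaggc
Plk1: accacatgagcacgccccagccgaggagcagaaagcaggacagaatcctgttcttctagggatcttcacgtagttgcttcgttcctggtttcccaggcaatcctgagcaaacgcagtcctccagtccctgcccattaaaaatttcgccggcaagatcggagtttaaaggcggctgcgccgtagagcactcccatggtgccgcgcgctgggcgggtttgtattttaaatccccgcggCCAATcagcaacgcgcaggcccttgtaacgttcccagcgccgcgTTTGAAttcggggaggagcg
Ccnb2: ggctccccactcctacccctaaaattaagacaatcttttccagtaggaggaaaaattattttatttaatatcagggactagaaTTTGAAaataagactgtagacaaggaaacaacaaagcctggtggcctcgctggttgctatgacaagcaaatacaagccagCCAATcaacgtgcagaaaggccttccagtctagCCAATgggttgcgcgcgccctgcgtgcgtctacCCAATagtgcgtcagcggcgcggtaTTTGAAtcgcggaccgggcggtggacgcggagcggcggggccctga
Kif22: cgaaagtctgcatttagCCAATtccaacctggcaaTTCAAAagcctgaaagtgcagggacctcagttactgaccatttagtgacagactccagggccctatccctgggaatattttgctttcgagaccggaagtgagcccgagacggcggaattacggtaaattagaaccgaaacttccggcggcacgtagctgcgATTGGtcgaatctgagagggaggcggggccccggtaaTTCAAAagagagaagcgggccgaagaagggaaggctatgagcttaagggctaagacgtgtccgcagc
Kif15: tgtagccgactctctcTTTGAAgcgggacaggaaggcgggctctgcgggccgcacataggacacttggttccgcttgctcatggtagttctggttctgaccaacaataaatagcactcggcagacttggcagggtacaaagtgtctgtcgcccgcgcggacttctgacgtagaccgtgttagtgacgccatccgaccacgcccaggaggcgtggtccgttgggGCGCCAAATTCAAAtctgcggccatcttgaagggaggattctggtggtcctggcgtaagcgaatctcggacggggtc
Kif20b: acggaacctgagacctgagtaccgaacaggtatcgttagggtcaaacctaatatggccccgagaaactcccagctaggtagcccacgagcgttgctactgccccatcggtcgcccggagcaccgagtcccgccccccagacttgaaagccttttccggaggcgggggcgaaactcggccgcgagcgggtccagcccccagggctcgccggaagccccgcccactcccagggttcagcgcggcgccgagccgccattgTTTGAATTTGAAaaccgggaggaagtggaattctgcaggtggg
Ccng1: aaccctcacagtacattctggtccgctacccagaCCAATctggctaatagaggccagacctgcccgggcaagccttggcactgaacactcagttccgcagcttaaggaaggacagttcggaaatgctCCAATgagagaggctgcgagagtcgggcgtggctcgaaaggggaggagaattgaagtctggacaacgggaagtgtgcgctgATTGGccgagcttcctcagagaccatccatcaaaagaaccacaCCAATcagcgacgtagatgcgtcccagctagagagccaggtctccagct

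Counting from 1 at the 5′ end of the window, Mki67 holds TTTGAA at bases 135 to 140 and 153 to 158, behind 3 CCAAT matches between bases 63 and 114. Plk1 holds CCAAT at bases 237 to 241 and TTTGAA at 281 to 286. In Ccnb2, 3 CCAAT matches between bases 164 and 234 lie just ahead of TTTGAA at 255 to 260, and a further TTTGAA lies at 84 to 89. In Kif20b, TTTGAA stands at bases 258 to 263 and again directly after it at 264 to 269, with no CCAAT in the window. Ccng1 has CCAAT letters at 4 places and no TTTGAA.

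The CHR letters were common in the genes that rose most. They were found in 19 of the 30 genes with a window that were at least 2-fold higher (63.3%), against 14.04% of the 5427 tested genes that have a window. They stood in 1 of 20 genes that were higher by less than 2-fold (5%), in 3 of 14 that were not called (21.4%) and in 6 of 25 that were lower (24%). The 19 include Ccnb2, Ccnf, Cdc20, Bub1b, Plk1, Ncapg2, Cdca8, Mki67, Mcm2, Cenpn and 9 kinesins. Those at least 2-fold higher without it include Ccne1, Mcm5, Plk4, Bub1, Cenpe and Cenph. CCAAT stood in 66.7% of the genes at least 2-fold higher, against 41.3% of all tested genes, and in 40% of the lower genes. TTTGAA and CCAAT occurred in the same window in 15 of the 30 genes (50%), against 5.34% of tested genes and 4% of lower genes. The E2F letters stood in 2 of the 30 genes at least 2-fold higher (6.67%), in 3 of the 20 higher by less (15%), in 2 of the 14 not called (14.3%) and in 0 of the 25 lower genes, against 1.53% of all tested genes. Outside the genes described here, 21.4% of 733 tested genes with TTTGAA and 15.6% of 4605 without it were at least 2-fold higher. These shares were not tested, and a match is not a measured binding site.

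**Figure D2:**
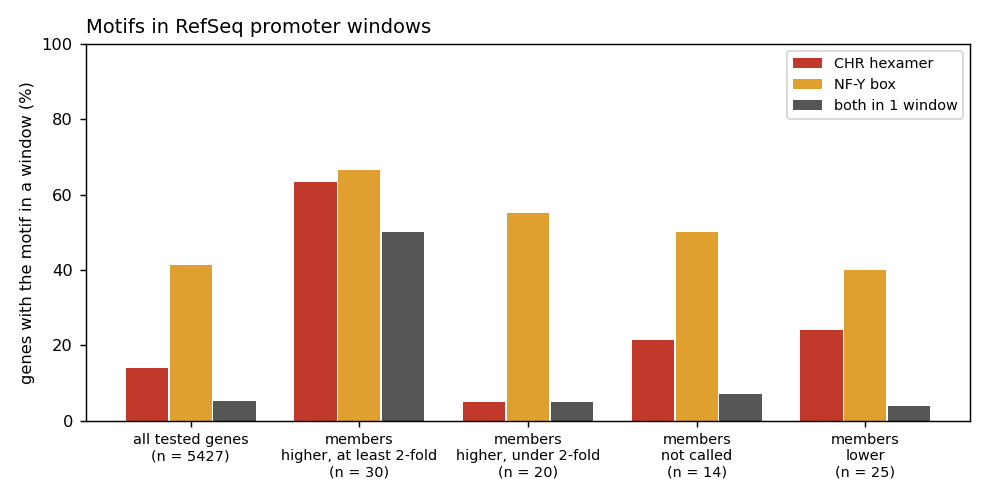
Share of genes, in percent, with the CHR hexamer, the NF-Y box letters, or both in the same RefSeq promoter window, for all tested genes and for 4 classes of the genes described here, with the number of genes that have a window. The bars for the CHR hexamer read 14.04%, 63.3%, 5%, 21.4% and 24% from left to right.

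Of 8 tested genes among cell cycle CDKs and their switches, 3 were higher and 3 lower, with a median log2 fold change of 0.05. These shares are near those over all tested genes, 39.3% higher and 35.3% lower. Cdk2, the S phase kinase, rose from 32.5 ± 4.91 to 48.3 ± 4.43 CPM (0.57 ± 0.11, adjusted p = 0.000975 in edgeR). Cdk4, a G1 kinase, rose from 10.3 ± 1.25 to 16.7 ± 1.10 CPM (0.70 ± 0.11, adjusted p = 0.000229). Cdk6, its close relative, fell from 20.5 ± 2.34 to 13.3 ± 0.602 CPM (-0.63 ± 0.10, adjusted p = 0.000269). The groups did not overlap in any of these CDKs. Cdk2 and Cdk4 share exon sequence with Pmel and Tspan31 on the opposite strand, and whether reads were counted by strand is not stated.

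Wee1 (ENSMUSG00000031016), the kinase that holds CDK1 inactive before mitosis, stood at 5.43, 5.71, 5.81, 3.78 and 4.87 CPM in the tumour areas and at 25.5, 23.0, 26.1 and 23.9 CPM in normal cortex. Values were tight within each group, and the highest tumour area lay far below the lowest normal area. Wee1 fell 4.81-fold (-2.27 ± 0.13, adjusted p = 2.45e-07 in edgeR). Cdc14b, a phosphatase of mitotic exit in yeast whose mammalian forms serve other roles as well, had 0.835, 0.336, 0.908, 0.436 and 0.457 CPM against 2.38, 3.0004, 1.99 and 5.06 CPM. All tumour areas were below all normal areas, at low levels, with 19 counts in the tumour libraries and 70 in the normal ones. Cdc14b fell 5.07-fold (-2.34 ± 0.38, adjusted p = 0.000246 in edgeR).

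Cdc14a stood at 44.5 ± 3.14 against 43.9 ± 2.74 CPM (0.02 ± 0.08, adjusted p = 0.809 in edgeR), and the phosphatase Cdc25a, an activator of CDK2, at 60.5 ± 6.85 against 57.5 ± 4.15 CPM (0.08 ± 0.09, adjusted p = 0.475). Cdc37, which hands client kinases to HSP90, rose slightly, from 228 ± 3.68 to 267 ± 14.7 CPM (0.23 ± 0.05). Cdk1, the mitotic CDK, was below the filter, with 5, 15, 7, 8 and 8 counts in the tumour areas and 1, 2, 0 and 2 counts in normal cortex. Cdc25c, the phosphatase that activates CDK1, had 48 counts in the tumour areas against 1 in the normal areas, a ratio of 34.3 with an exact 95% counting interval of 5.86 to 1381. Each tumour library held more counts of Cdk1 and of Cdc25c than any normal library.

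Among CDK inhibitors, Cdkn1a (ENSMUSG00000023067), which encodes p21, a p53 target that blocks CDK2, rose. It stood at 268, 269, 229, 234 and 217 CPM in the tumour areas and at 132, 124, 121 and 134 CPM in the normal areas. L4 and R2 were highest, and no tumour area reached the normal range. The rise was 1.91-fold (0.93 ± 0.08, adjusted p = 1.97e-06 in edgeR). Cdkn1b, which encodes p27, stood at 48.8 ± 6.84 against 51.3 ± 4.42 CPM (-0.07 ± 0.11, adjusted p = 0.579 in edgeR), and Cdkn1c, p57, at 2.03 ± 0.614 against 1.73 ± 0.219 CPM (0.25 ± 0.26, adjusted p = 0.4). Cdkn2aipnl, named for its likeness to a partner of the Cdkn2a product and not itself a CDK inhibitor, rose from 60.6 ± 1.99 to 101 ± 12.4 CPM (0.74 ± 0.09). Cdkn2a held 1 count over all libraries.

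Replication licensing showed 5 genes higher, 1 lower and 3 not called among 9 tested, with a median log2 fold change of 0.46. The MCM2 to MCM7 proteins form the ring-shaped replicative helicase. Mcm5 (ENSMUSG00000005410) stood at 42.7, 43.1, 27.1, 23.7 and 40.6 CPM in the tumour areas and at 5.19, 7.36, 6.31 and 8.10 CPM in normal cortex. R2, L4 and R5 were high and R3 and R4 lower, as for Mki67, and all stood above the normal areas. Mcm5 rose 5.23-fold (2.39 ± 0.23, adjusted p = 5.77e-06 in edgeR).

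Other helicase subunits rose less. Mcm4 had 47.3, 38.1, 34.5, 31.5 and 39.0 CPM against 11.7, 14.3, 15.3 and 14.4 CPM, with no overlap (1.45 ± 0.13, adjusted p = 4.81e-06 in edgeR). Mcm2 rose from 24.8 ± 4.02 to 55.1 ± 6.31 CPM (1.15 ± 0.13). Mcm7 rose from 3.16 ± 0.766 to 5.46 ± 0.520 CPM (0.79 ± 0.18), but it has a near-identical copy and overlaps Ap4m1 and Cops6 on the other strand, so its counts are uncertain. The difference in Mcm6 was small (0.38 ± 0.15, adjusted p = 0.0411 in edgeR), its groups overlapped, and without normal R1 or R2 or tumour R2, R4 or R5 it did not pass (adjusted p = 0.0504 to 0.123). Mcm3 and the replication kinase Cdc7 were listed at 0.

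Mcm9, which works with Mcm8 in recombination repair rather than in the replicative ring, fell from 44.0 ± 1.96 to 32.0 ± 2.81 CPM (-0.46 ± 0.08, adjusted p = 0.000494 in edgeR). Mcm8 itself stood at 2.14 ± 0.581 against 1.56 ± 0.324 CPM (0.46 ± 0.26, adjusted p = 0.136). Mcm3ap, an mRNA export factor that binds MCM3, and Mcmbp, which unloads MCM complexes, were not called either, at -0.16 ± 0.08 and -0.15 ± 0.08 on the log2 scale (adjusted p = 0.108 and 0.123 in edgeR).

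All 4 tested mitotic kinases rose. Plk1 (ENSMUSG00000030867), the Polo kinase that drives entry into mitosis and spindle assembly, stood at 8.63, 12.9, 6.90, 9.44 and 8.67 CPM in the tumour areas and at 1.51, 0.818, 1.16 and 1.01 CPM in normal cortex. R2 was the highest area, and R3, the lowest tumour area, was still several-fold above normal cortex. Plk1 rose 8.33-fold (3.06 ± 0.26, adjusted p = 2.25e-06 in edgeR). Aurkb (ENSMUSG00000020897), the kinase of the chromosomal passenger complex, stood at 12.1, 11.6, 9.26, 7.55 and 7.91 CPM against 1.51, 0.409, 0.830 and 0.202 CPM. L4 and R2 were high, and the groups were far apart, with a 13.4-fold rise (3.74 ± 0.37, adjusted p = 7.14e-06 in edgeR). Plk4, which starts centriole duplication, rose from 0.432 ± 0.202 to 2.68 ± 0.727 CPM (2.56 ± 0.37), and Plk2, a stress-induced relative, only from 26.4 ± 2.24 to 34.2 ± 3.47 CPM (0.37 ± 0.10). Aurka held 1 count over all libraries, and Aurkc and Plk3 were listed at 0. Plk5, below the filter, went the other way, with 11 counts in the tumour areas against 35 in normal cortex. Aurkb, Plk1 and Plk4 held at most 7 counts in any normal library and passed the filter through the tumour areas.

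Of 7 tested genes of the spindle checkpoint and the APC/C, 5 were higher, 1 lower and 1 not called. Bub1, Bub1b and Cdc20 held at most 5 counts in any normal library and passed the filter through the tumour areas. Bub1 (ENSMUSG00000027379), a checkpoint kinase of the kinetochore, had 19, 17, 10, 10 and 21 counts in the tumour areas and 2, 1, 0 and 0 in the normal areas. R5 and L4 were high, and every tumour library held several times the counts of any normal library. The ratio of the group totals, 77 against 3 counts, was 18.3 with an exact 95% counting interval of 6.04 to 90.8, and the gene passed in edgeR (adjusted p = 0.000131). Normal L1 held 2 of the 3 normal counts, and the fitted log2 fold change was 3.99 with it and 5.02 without it. Bub1b, which encodes the checkpoint protein BUBR1, had 6.26, 8.89, 5.81, 4.94 and 6.70 CPM against 0.865, 0.682, 0.332 and 1.01 CPM. R2 was highest and R4 lowest among the tumour areas, and no normal area came near them. Bub1b rose 9.03-fold (3.17 ± 0.30, adjusted p = 5.1e-06 in edgeR).

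Cdc20, the activator of the APC/C in mitosis, stood at 2.51, 5.37, 2.18, 2.90 and 2.74 CPM against 0.433, 0.409, 0.664 and 0.202 CPM. R2 stood apart from the other tumour areas, and all 5 were above normal cortex (2.79 ± 0.41, adjusted p = 0.000127 in edgeR). Cdc20 shares exon sequence with Elovl1 on the opposite strand. Mad2l1, the checkpoint protein MAD2, rose from 1.49 ± 0.847 to 3.05 ± 0.860 CPM (1.01 ± 0.36, adjusted p = 0.025 in edgeR). Its groups overlapped, and without normal L1 or R1 or tumour R3 it did not pass (adjusted p = 0.0509 to 0.0788). Bub3 rose modestly, from 66.0 ± 5.22 to 82.8 ± 6.76 CPM (0.33 ± 0.08). Cdc27, a subunit of the APC/C, fell from 133 ± 3.39 to 95.4 ± 1.997 CPM (-0.47 ± 0.04, adjusted p = 3.33e-06 in edgeR), with no overlap, and Cdc16, a further subunit, had 3.30 ± 1.54 against 3.67 ± 0.458 CPM (-0.14 ± 0.32, adjusted p = 0.708). When tumour R3 was left out, 3 genes of this list were higher instead of 5, with 6 tested.

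Of 9 tested centromere proteins, 8 were higher, 6 of them at least 2-fold, and 1 was not called, with a median log2 fold change of 1.29. Over all tested genes, 39.3% were higher and 17.3% at least 2-fold higher. Cenph, Cenpk and Cenpp held at most 4 counts in any normal library. They passed the filter through the tumour areas, so the count and the median were partly fixed in advance. Cenph (ENSMUSG00000045273), part of the protein network that sits on centromeres throughout the cycle, stood at 5.01, 6.88, 2.54, 2.90 and 4.41 CPM in the tumour areas and at 0.865, 0.273, 0.498 and 0.405 CPM in normal cortex. R2 and L4 were well above R3 and R4, and all were above the normal areas. Cenph rose 8.67-fold (3.12 ± 0.43, adjusted p = 8.43e-05 in edgeR). Other proteins of the same network rose as well: Cenpp (1.73 ± 0.32), Cenpk (1.70 ± 0.36), Cenpn (1.44 ± 0.23), Cenpt (1.29 ± 0.18) and Cenpq (1.00 ± 0.20).

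Cenpe, a kinesin motor that carries chromosomes to the spindle equator, had 12.4, 16.4, 11.3, 16.1 and 14.3 CPM against 6.06, 7.501, 5.65 and 4.66 CPM. Here R2 and R4 were the highest areas, and the groups did not overlap (1.23 ± 0.17, adjusted p = 9.65e-05 in edgeR). Cenpj, a centriole protein despite its name, differed by 0.42 ± 0.17 (adjusted p = 0.0382 in edgeR) with overlapping groups, and it did not pass without normal L2, R1 or R2 or tumour L4, R2 or R5 (adjusted p = 0.0531 to 0.109). Cenpc1, which binds centromeric chromatin, stood at 3.76 ± 0.722 against 3.31 ± 0.778 CPM (0.17 ± 0.22, adjusted p = 0.484 in edgeR). Cenpa, the centromeric histone, held 7 counts in all, 6 of them in tumour areas, and Cenpl, Cenpm, Cenpu and Cenpx were listed at 0. Without tumour L4, R2 or R5, 7 centromere genes passed the filter and 5 of them were higher.

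Condensins fold mitotic chromosomes. Ncapg2 (ENSMUSG00000042029), a subunit of condensin II, stood at 32.4, 42.1, 28.7, 33.3 and 31.3 CPM in the tumour areas and at 6.06, 7.64, 8.30 and 10.1 CPM in normal cortex. R2 was high and the other tumour areas were close to each other, with every area above the normal ones (2.06 ± 0.16, adjusted p = 1.43e-06 in edgeR). Ncapd3, a subunit of the same complex, stood at 7.53 ± 1.01 against 9.59 ± 1.82 CPM (-0.35 ± 0.16, adjusted p = 0.0736 in edgeR). It passed as lower in 3 of the 19 alternatives, among them without normal L1 (-0.45, adjusted p = 0.0347 in edgeR). Ncaph and Ncaph2 were listed at 0, and Ncapd2 held 1 count.

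The 3 tested Cdca genes were all higher. Cdca8 (ENSMUSG00000028873), which encodes borealin of the chromosomal passenger complex, stood at 12.7, 22.5, 12.7, 11.0 and 13.8 CPM against 2.16, 2.45, 2.82 and 3.04 CPM. R2 stood apart from the other 4 tumour areas, which were alike, and the rise was 5.51-fold (2.46 ± 0.25, adjusted p = 8.13e-06 in edgeR). Cdca7, a chromatin protein that recruits the remodeller HELLS, had 11.1, 4.36, 4.36, 3.49 and 9.13 CPM against 1.51, 1.64, 0.498 and 1.01 CPM. L4 and R5 stood well above the other tumour areas. Cdca7 rose 5.50-fold (2.46 ± 0.48, adjusted p = 0.00081 in edgeR), and without both L4 and R5 its log2 fold change was 1.78. Its relative Cdca7l, also highest in R5 and L4, rose from 10.5 ± 1.42 to 17.3 ± 4.59 CPM (0.71 ± 0.20). Cdca5, which encodes sororin, was listed at 0.

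**Figure D3:**
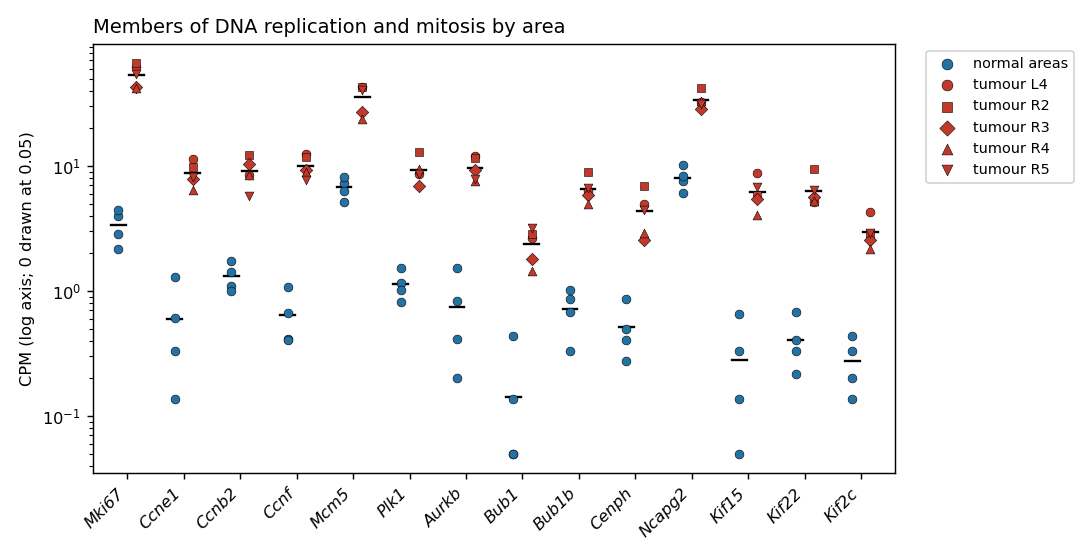
CPM on a log axis of 14 genes of DNA replication and mitosis in each area, blue for the 4 normal areas and red for the 5 tumour areas with a symbol per area, and a bar at each group's mean; a value of 0 is drawn at 0.05. In each gene shown all tumour areas lie above all normal areas, as for Mki67 at 42.3 to 66.1 against 2.16 to 4.45 CPM.

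Kinesins of the spindle and of cytokinesis rose in 10 of 12 tested cases, with a median log2 fold change of 2.17. Of these, Kif15, Kif22, Kif2c, Kif18b and Kifc1 held at most 5 counts in any normal library. They passed the filter through the tumour areas, so the count and the median were partly fixed in advance. Kif15 (ENSMUSG00000036768), which helps to keep spindle poles apart, stood at 8.77, 5.87, 5.45, 4.07 and 6.85 CPM in the tumour areas and at 0.649, 0.136, 0.332 and 0 CPM in normal cortex. Normal cortex held 6 counts in all, and every tumour area was well above it. Kif15 had the largest fold change among the 102 tested genes, 22.0-fold (4.46 ± 0.47, adjusted p = 1.13e-05 in edgeR), and 5.08 on the log2 scale without normal L1. Kif11, the main motor that pushes the poles apart, had 21.9, 25.0, 18.7, 18.0 and 14.9 CPM against 5.41, 3.82, 4.65 and 4.25 CPM. R2 and L4 were again high and R5 lowest, with a 4.37-fold rise (2.13 ± 0.18, adjusted p = 2.65e-06 in edgeR).

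Kif22 (ENSMUSG00000030677), a motor that rides on chromosome arms, stood at 5.15, 9.40, 5.63, 5.23 and 6.39 CPM against 0.216, 0.682, 0.332 and 0.405 CPM. R2 was highest, and the groups were far apart (3.81 ± 0.34, adjusted p = 3.48e-06 in edgeR). Kif4, also a chromosome motor, rose from 1.51 ± 0.460 to 6.82 ± 1.37 CPM (2.18 ± 0.24). Among motors that shorten microtubules at kinetochores and spindle ends, Kif2c rose from 0.276 ± 0.132 to 2.96 ± 0.812 CPM (3.40 ± 0.38), Kif18b from 0.718 ± 0.203 to 6.63 ± 2.62 CPM (3.20 ± 0.38) and Kif18a from 2.54 ± 0.659 to 4.68 ± 1.36 CPM (0.86 ± 0.26). Kifc1, a motor that walks the opposite way and focuses the poles, rose 4.81-fold (2.27 ± 0.34), but its near-identical copy Kifc5b could take or give reads.

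For cytokinesis, Kif23, which bundles microtubules at the midzone, rose from 2.12 ± 0.264 to 8.29 ± 1.37 CPM (1.95 ± 0.18, adjusted p = 4.54e-06 in edgeR). Kif20a rose from 3.28 ± 1.32 to 14.8 ± 4.15 CPM (2.16 ± 0.30), with exon sequence shared with Cdc23 on the opposite strand. Kif24, a centriole motor that restrains cilia, stood at 2.03 ± 0.541 against 1.49 ± 0.233 CPM (0.44 ± 0.26, adjusted p = 0.165).

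Kif20b (ENSMUSG00000024795), a motor of late cytokinesis, was the exception in this list. It stood at 10.3, 8.73, 16.0, 16.6 and 13.5 CPM in the tumour areas and at 82.0, 84.4, 74.7 and 74.1 CPM in the normal areas. The order of the tumour areas was turned around as well: R4 and R3, the lowest areas for most genes that rose at least 2-fold, were highest here, and R2 was lowest. Every tumour area was far below every normal area. Kif20b fell 6.05-fold (-2.60 ± 0.17, adjusted p = 4.49e-07 in edgeR), the largest decrease among the 102 tested genes. Its counts were ample, 417 in the tumour and 1814 in the normal libraries. No exon overlap with another gene and no near-identical copy was found for it.

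Kinesins of transport, cilia and other roles split, with 4 higher, 9 lower and 3 not called among 16 tested, and a median log2 fold change of -0.36. The heterotrimeric kinesin-2 motor, which carries cargo into cilia, is built from the products of Kif3a, Kif3b and Kifap3, and these genes moved in opposite directions. Kif3a (ENSMUSG00000018395) stood at 30.2, 35.4, 33.4, 28.8 and 33.5 CPM in the tumour areas and at 19.0, 18.7, 18.9 and 18.4 CPM in normal cortex. Kif3b (ENSMUSG00000027475) stood at 139, 119, 133, 129 and 122 CPM against 218, 217, 216 and 229.6 CPM. Values within each group were close, Kif3a being higher and Kif3b lower in every tumour area. Kif3a rose 1.72-fold (0.78 ± 0.09, adjusted p = 1.56e-05 in edgeR), and Kif3b fell 1.72-fold (-0.78 ± 0.05, adjusted p = 6.65e-07). Kifap3, the motor's cargo adaptor, fell from 11.4 ± 1.26 to 4.87 ± 0.628 CPM (-1.22 ± 0.14). Kif3c, a further kinesin-2 subunit, stood at 32.3 ± 6.39 against 28.5 ± 1.52 CPM (0.18 ± 0.14, adjusted p = 0.258).

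The kinesin-3 motors, which carry vesicles and organelles, include the lowest and the highest of this list. Kif13b (ENSMUSG00000060012) stood at 10.9, 16.1, 12.5, 16.6 and 10.7 CPM in the tumour areas and at 53.7, 55.9, 55.8 and 53.4 CPM in normal cortex. R2 and R4 were the higher tumour areas, yet far below the tight normal values. Kif13b fell 4.10-fold (-2.04 ± 0.14, adjusted p = 5.61e-07 in edgeR). Kif1a (ENSMUSG00000014602), best known as an axonal motor, had 23.0, 15.4, 15.1, 11.8 and 22.1 CPM against 3.46, 2.45, 3.65 and 3.85 CPM. L4 and R5 were highest, and no area overlapped. Kif1a rose 5.25-fold (2.39 ± 0.25, adjusted p = 9.63e-06 in edgeR).

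Other kinesin-3 genes were lower: Kif1c fell from 285 ± 14.3 to 151 ± 8.41 CPM (-0.91 ± 0.06) and Kif13a from 128 ± 5.11 to 87.7 ± 6.66 CPM (-0.55 ± 0.06). Kif16b also fell (-0.36 ± 0.12), though without normal R2 it did not pass (adjusted p = 0.0649). Kif1b was slightly lower (-0.20 ± 0.06) and read 0.09 with scaling by library size alone. Kif26b, a kinesin-like protein needed for kidney development, fell from 23.0 ± 1.74 to 10.8 ± 2.68 CPM (-1.09 ± 0.17), and Kif21a, which restrains microtubule growth, from 272 ± 6.65 to 159.7 ± 33.99 CPM (-0.77 ± 0.13). Kifc2 rose (0.74 ± 0.15), as did Kif2a (0.39 ± 0.11), a depolymerase related to Kif2c. Kifc3, a motor of epithelial cell junctions, stood at 33.2 ± 7.49 against 42.7 ± 1.93 CPM, just short of the threshold (-0.36 ± 0.15, adjusted p = 0.0502 in edgeR). It was called lower in 7 of the 19 alternatives, among them without tumour R3 or R4 (adjusted p = 0.0262 and 0.0166 in edgeR). Kif5b and Kif6 were listed at 0.

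CDKs that act in transcription were lower in 3 of 4 tested cases. Cdk7 (ENSMUSG00000069089), which activates other CDKs and is the kinase of the transcription factor TFIIH, stood at 64.5, 56.2, 69.0, 68.4 and 68.8 CPM in the tumour areas and at 151, 155, 143 and 144 CPM in the normal areas. Both groups were tight and far apart, and Cdk7 fell 2.27-fold (-1.18 ± 0.07, adjusted p = 2.08e-07 in edgeR). Cdk12 and Cdk13, which phosphorylate elongating RNA polymerase II, fell by 0.71 ± 0.13 and 0.45 ± 0.05 on the log2 scale. Cdk19, a kinase of the Mediator complex, stood at 128 ± 13.9 against 138 ± 2.73 CPM (-0.10 ± 0.07, adjusted p = 0.238). It passed as lower without tumour L4, its highest area (-0.16, adjusted p = 0.0101).

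Among other CDKs and partners, 4 of 7 were higher, 1 lower and 2 not called. Cdk10 rose from 40.2 ± 3.001 to 64.3 ± 4.57 CPM (0.68 ± 0.08, adjusted p = 2.02e-05 in edgeR), and Cdk2ap1, which binds CDK2, from 7.61 ± 1.31 to 12.2 ± 2.07 CPM (0.68 ± 0.17). Cdk17 was higher by 0.39 ± 0.13 with overlapping groups, and without normal L1 or L2 it did not pass (adjusted p = 0.0502 and 0.0625). Cdk5, best known in neurons, rose by 0.29 ± 0.08. Cdk5rap2, a centrosome protein, fell from 17.2 ± 1.503 to 13.4 ± 1.32 CPM (-0.37 ± 0.11). Cdk16 (0.03 ± 0.08) and Cdk20 (0.10 ± 0.11) were not called. With only the areas whose names carry R, 1 of the 7 was higher. Ccndbp1, a partner of D cyclins that belongs to no role list, rose by 0.51 ± 0.07.

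Of 3 tested kinases named for Cdc42, a small GTPase of cell shape and polarity, Cdc42bpa stood at 24.5, 36.7, 35.0, 34.4 and 28.0 CPM against 69.5, 69.7, 61.0 and 72.9 CPM. L4 and R5 were lowest, and all tumour areas were below normal cortex (-1.11 ± 0.12, adjusted p = 1.43e-05 in edgeR). Cdc42bpb fell from 334 ± 13.1 to 264 ± 9.37 CPM (-0.34 ± 0.05), and Cdc42bpg was not called (-0.12 ± 0.08, adjusted p = 0.164), although it passed as lower without tumour R4 (-0.18, adjusted p = 0.0237) and read 0.16 with library size alone.

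The remaining genes with a Cdc name serve other processes, and 5 of 7 were lower. Cdc37l1 (ENSMUSG00000024780), a co-chaperone of HSP90, stood at 76.4, 73.2, 90.0, 104 and 80.5 CPM in the tumour areas and at 297, 291, 289 and 289.7 CPM in the normal areas. The normal values were almost level, R4 was the highest tumour area, and the groups were far apart. Cdc37l1 fell 3.44-fold (-1.78 ± 0.09, adjusted p = 1.5e-07 in edgeR). Cdc73, a subunit of the PAF1 transcription elongation complex, had 58.3, 54.2, 61.5, 58.4 and 56.6 CPM against 110.1, 118, 117 and 107 CPM. All tumour areas were near each other and well below normal cortex (-0.97 ± 0.06, adjusted p = 2.16e-07 in edgeR).

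Cdcp1, a surface protein phosphorylated by Src kinases, fell from 289 ± 7.59 to 160.4 ± 23.3 CPM (-0.85 ± 0.10). The splicing factors Cdc40 and Cdc5l were lower by 0.37 ± 0.05 and 0.18 ± 0.07 on the log2 scale. For Cdc5l the groups overlapped, it has near-identical copies, it did not pass without normal L1, L2 or R1 or tumour R2, R3, R4 or R5 (adjusted p = 0.0564 to 0.119), and it read 0.12 with library size alone. Cdc123, which helps to assemble a translation initiation factor, rose from 5.62 ± 0.144 to 9.03 ± 1.27 CPM (0.68 ± 0.14). Cdc34, a ubiquitin-conjugating enzyme, was called higher at 0.14 ± 0.05 (adjusted p = 0.031 in edgeR) and did not pass without any single normal area (adjusted p = 0.0561 to 0.112).

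**Figure D4:**
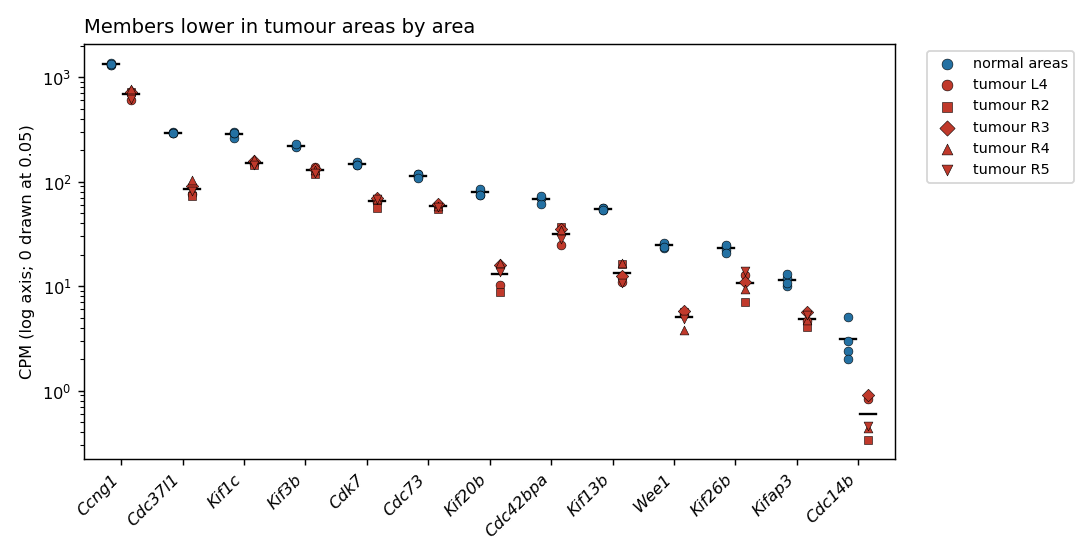
CPM on a log axis of 13 genes that were lower in the tumour areas, drawn as in the plot of replication and mitosis genes, ordered by normal mean. Ccng1 lies at the left, at 605 to 761 against 1291 to 1368 CPM, and in each gene shown all tumour areas lie below all normal areas.

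Other genes of the same pathway were read from lists that were chosen with earlier results of these data known, so their directions are no independent evidence. Of 21 tested genes of the spindle, kinetochore and cytokinesis, 18 were higher and 3 were not called, with a median log2 fold change of 2.26. Ndc80, the microtubule-binding arm of the kinetochore, had 62 counts in the tumour areas against 2 in the normal areas, a ratio of 22.1 with an exact 95% counting interval of 5.87 to 187. Melk, a kinase of dividing cells, rose from 0.441 ± 0.209 to 6.95 ± 2.08 CPM (3.92 ± 0.36, adjusted p = 4.12e-06 in edgeR).

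Of 22 tested DNA synthesis genes, 15 were higher and 2 lower, with a median of 0.78. Uhrf1, which copies DNA methylation onto new strands, rose from 3.50 ± 1.02 to 37.3 ± 7.82 CPM (3.41 ± 0.23), and Gins1, a helicase partner of the MCM ring, from 1.05 ± 0.203 to 5.99 ± 1.14 CPM (2.49 ± 0.23). Orc4, of the origin recognition complex, fell from 45.9 ± 3.84 to 34.7 ± 3.35 CPM (-0.40 ± 0.09). Pcna and Tyms were listed at 0.

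Among 14 tested regulators of the E2F, RB and DREAM group, 8 were higher and 5 lower, against 39.3% and 35.3% of all tested genes. E2f8, a repressor of late S phase, rose 11.9-fold (3.57 ± 0.37, adjusted p = 9.26e-06 in edgeR), and E2f2, an activator of S phase genes, from 19.6 ± 1.86 to 73.2 ± 13.5 CPM (1.91 ± 0.15). Tfdp2, a partner that E2F proteins need to bind DNA, fell by 1.08 ± 0.11 on the log2 scale, and Lin52, a MuvB subunit, by 0.88 ± 0.05. Foxm1, Lin9, Lin37 and Lin54 were listed at 0.

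Cohesin, SMC and APC/C genes split, with 6 higher and 8 lower of 15 and a median of -0.15. Ube2c, the ubiquitin-conjugating enzyme of the APC/C, rose from 1.29 ± 0.341 to 12.9 ± 2.68 CPM (3.29 ± 0.23), and Smc2, the condensin core, from 15.3 ± 1.998 to 42.2 ± 7.71 CPM (1.46 ± 0.15). The APC/C subunits Anapc2 (0.94 ± 0.06), Anapc5 (0.95 ± 0.05) and Anapc7 (0.16 ± 0.07) were higher and Anapc1 (-0.15 ± 0.05) lower, though Anapc1 read 0.14 with library size alone. Anapc7 passed narrowly with overlapping groups (adjusted p = 0.0482 in edgeR), and not without any single normal area or without tumour R3, R4 or R5 (adjusted p = 0.0536 to 0.128). These 4 were picked for mention with their values already seen. The cohesin genes Stag2 (-1.35 ± 0.10) and Pds5b (-1.35 ± 0.12) fell. Of 15 tested genes of the DNA damage checkpoint, 9 were higher and 3 lower. Brca1, of recombination repair, rose from 1.67 ± 0.257 to 11.3 ± 2.41 CPM (2.72 ± 0.21). Fancd2, of the crosslink repair pathway, rose by the same log2 value, 2.72 ± 0.47, which was 3.67 without normal R2. Sesn3 (-1.36 ± 0.16) and Gadd45g (-1.14 ± 0.10), both stress-response genes, fell.

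The tumour areas differed among themselves. Of the 33 genes that were at least 2-fold higher, 18 were highest in R2 and 11 in L4, while 18 were lowest in R4 and 9 in R3. The highest tumour area exceeded the lowest by 1.31-fold in Mcm2 to 3.20-fold in Cdca7, with a median of 1.82-fold. In 32 of the 33 genes every tumour area was still above every normal area, Mad2l1 being the exception. The 33 were picked as higher in these same areas, so this separation was largely built in by the choice. Over all tested genes, the tumour areas lay above the normal ones in 34.8%. Among the 27 lower genes, 12 were highest in R4 and 11 lowest in R2.

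Markers of other cells moved with group and area. Immune cells can divide, and their markers were higher in the tumour areas. B and plasma cell genes (5 of 5 tested were higher) summed to 2045, 1456, 932, 1133 and 1492 CPM against 447 to 475 CPM in normal cortex. T and NK cell genes (6 of 6 tested higher, 3 below the filter, Lck and Cd2 at 0) summed to 334, 216, 134, 166 and 281 CPM against 8.64 to 12.4 CPM. Macrophage and dendritic cell genes (7 of 8 higher) summed to 2008, 1124, 1122, 810 and 1400 CPM against 87.9 to 113 CPM. All 3 sums were highest in L4. Urothelial and stratified epithelial genes (6 of 6 tested higher, 4 below the filter, Krt14 at 0) reached 1236 CPM in L4 and 249 CPM in R5, against 49.1 to 113 CPM in R2, R3 and R4 and 0.498 to 5.59 CPM in normal cortex. Genes so low in normal cortex pass the filter largely through the tumour areas. The counts of higher genes in the T and NK and urothelial lists were therefore largely fixed in advance. Over all tested genes, 39.3% were higher.

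Of 9 proximal tubule genes 8 were lower, and of 8 distal nephron genes 6 were lower, at summed levels of 2542 to 7941 CPM against 11695 to 11908 CPM for the latter. Endothelial and fibroblast genes (2 higher and 3 lower of 6) summed to 806 to 1930 CPM against 580 to 619 CPM. Fat genes reached 144 CPM in L4 and 31.8 CPM in R5, and the 1 tested fat gene was not called. The part of these cells in the cell cycle results was not tested. Without L4 and R5, 48 of the genes were higher instead of 57. Leaving out any single area lowered this count as well, as given at the end. Over all genes, 2687 of 6900 tested were higher without L4 and R5, against 2760 of 7020 with all areas.

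**Figure D5:**
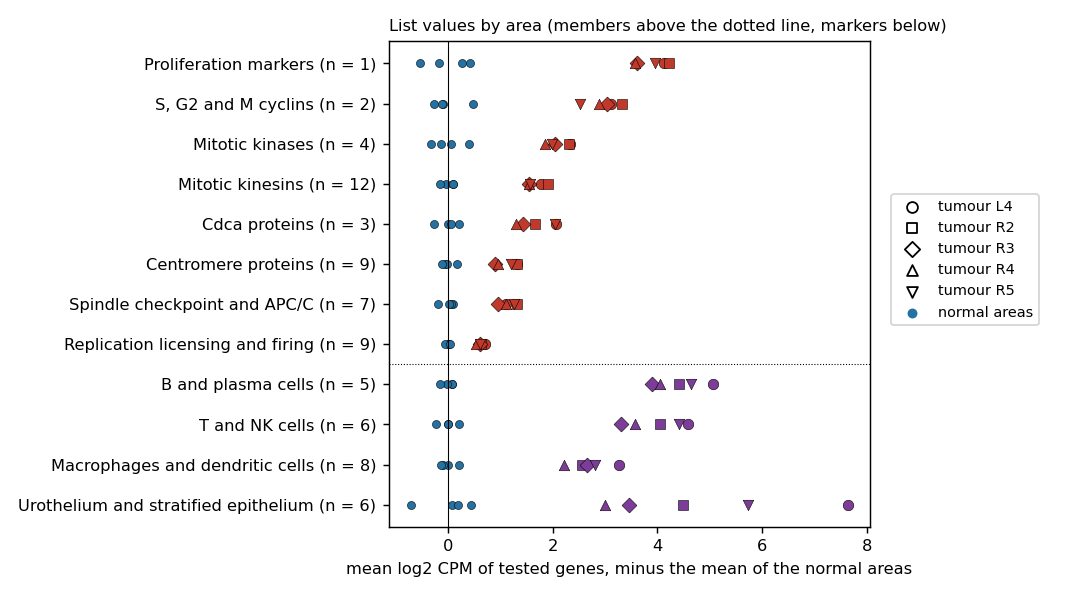
Mean log2 CPM of the tested genes of each list in each of the 9 areas, minus the mean over the normal areas, with 8 role lists above a dotted line and 4 cell type marker lists below it. The immune and urothelial lists are highest in tumour area L4, where the urothelial genes sum to 1236 CPM.

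The 37 genes below the filter held at most 88 counts in all. With no filter, edgeR called 3108 of all 10063 genes higher and 2623 lower. Of the 10063, 7020 had passed the filter, so their shares are no like measure for genes with few counts. Of the 37, edgeR called 8 higher and 1 lower. Those higher include Cdk1 (2.52, adjusted p = 0.00364) and Cdc45, a helicase activator (1.14, adjusted p = 0.0322), besides Cdc25c, Cdca3, Cdkn3, Cenps, Kifc5b and Mcmdc2. Plk5, a Polo-like gene without a complete kinase, was the lower one, with 11 counts in the tumour areas against 35 in normal cortex. Cdca3 had 26 counts against 3, a ratio of 6.19 with an exact 95% interval of 1.90 to 31.9, and Cenps had 9 against 0, which is at least 2.14-fold higher when the normal areas are set to 3 counts in all. Intervals and floors cover counting error only. The 19 genes at 0 had a median of 6 annotated transcripts per gene, against 5.5 for the 122 of the 158 genes with over 10 counts. Over all genes the order was the reverse, with a median of 4 at 0 counts and 5 with over 10 counts.

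Besides Cdc20, Cdk2, Cdk4, Kif20a and Mcm7, further tested genes named above share exon sequence with a gene on the other strand in the GRCm38 annotation: Ccnd1, Cdc123, Cdc14a, Cdc37l1, Cdc42bpa, Cdc42bpb, Cdc5l, Cdc73, Cdca7l, Cdca8, Cdk10, Cdk17, Cdk19, Cdk20, Cdk6, Cdkn1a, Cdkn1c, Cenpk, Cenpp, Cenpq, Cenpt, Kif18a, Kif22, Kif26b, Kif2a, Kif3c, Kif4, Kifc2, Kifc3, Mcm3ap, Mcm9 and Plk1. Of those below the filter, Ccna1, Ccne2, Cdc25c, Cdc45 and Mcmdc2 do so too. If reads were counted without strand, reads from the shared stretches cannot be told apart. Exon overlaps on the same strand were found for Ccnf, Cdc14b, Cdk10, Cdk5rap2, Kif1c, Mcm7 and Ncapd2. Near-identical stretches elsewhere in the genome were found for Cdk10, Cdk2ap1, Cenpc1, Kif2a and Mad2l1, besides Ccnb1, Cdc5l, Kifc1, Kifc5b and Mcm7.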

How the data were processed

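PolyA-selected RNA from 5 tumour and 4 normal kidney cortex areas was sequenced in paired 50-base reads, per the labels. The authors deposited 1 table of raw read counts per gene. STAR 2.3, HTSeq, edgeR and the mm9 build are named in the submitters' processing notes; strand setting and annotation are not stated by any source used here. Symbols came from a GENCODE M21 name table, which matched 14026 of 14052 identifiers. Libraries held 5143527 to 8250261 counts. CPM were taken on the library sizes of the tested genes, scaled by TMM factors, and 3 counts correspond to 0.409 to 0.649 CPM on that scale. Since the files use mm9 and the reference is GRCm38, no gene coordinates are given, and promoter windows are those of RefSeq on GRCm38.p6. A motif in a promoter window says nothing of the transcript used in these cells.

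Counts were tested with edgeR 4.0.16 in R 4.3.3 (quasi-likelihood F test, filterByExpr with a minimum count of 10 and a minimum total of 15, TMM factors, group as the only term, Benjamini-Hochberg adjustment over 7020 tested genes, calls at an adjusted p under 0.05). The same code was tested on simulated data in which only a small part of the genes was changed. Here 74.6% of tested genes were called, a setting that the simulation does not cover. CPM are counts relative to the TMM-scaled library size. Genes whose group total was 1 to 3 counts are given as a ratio with an exact 95% interval. Near-identical copies were searched with BLAST 2.17.0 and exon overlaps with bedtools 2.31.1, both on the GRCm38 annotation.

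The members and lists, and the alternative without tumour areas L4 and R5, were chosen with earlier results of these data known. The rule for named genes took 16 fixed genes (of which Top2a is not analysed here), up to 3 called genes in each direction per role list whose higher group averaged 1 CPM or more, up to 2 genes per list that were not called, and up to 2 in each direction per list of other cell cycle genes. Other members named, such as Cenpe, Cenpj, Cenpn, Cenpq, Cenpt, Kif11, Kif18a, Kif18b, Kif1b, Kif1c, Kif3b, Kif4, Kif23, Kifc1, Mad2l1, Mcm6, Mcm7, Mcm8, Plk2 and those below the filter, were chosen after their values were seen. Alternatives were DESeq2 1.42.0, limma-voom (limma 3.58.1), other scaling factors and filters, the area letter as a covariate, and subsets of areas.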

Additional observations from a re-analysis of the deposited data

Results flagged for a closer look

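In 12 of 204 groups of areas, the highest or lowest area stood apart from the rest by Dixon's criterion, where chance gives about 1 in 20 (10.2 groups). Among tumour areas, R2 was high for Cdc20 (5.37 CPM, others 2.18 to 2.90) and for Cdca8 (22.5 CPM, others 11.0 to 13.8). R5 was high for Cdc34 (119 CPM, others 105.7 to 109.6) and Cdk6 (14.3 CPM, others 12.8 to 13.1), L4 for Cdk19 (152 CPM, others 116 to 126) and R3 for Mcm3ap (47.6 CPM, others 39.9 to 41.5). R4 was low for Cenpp (1.16 CPM, others 1.68 to 1.83). Among normal areas, R2 was low for Cdc34 (94.5 CPM, others 101 to 102) and high for Cdkn1b (57.9 CPM, others 48.5 to 49.8) and Kif3b (229.6 CPM, others 216 to 218). R1 was high for Cdcp1 (299.97 CPM, others 284 to 286) and L1 for Kif13a (136 CPM, others 126).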

How the results depend on the processing

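Of 124 genes followed over 19 alternatives, 85 kept their direction and their side of the threshold in every one. The count of higher genes ran from 46 (only areas with the letter R) to 66 (library size alone), with 50 to 53 when 1 area was left out, and that of lower genes from 20 (library size alone) to 28, with 26 to 28. Scaling by library size alone moved the median log2 fold change of all tested genes from 0.06 to 0.35 and the share of higher calls from 52.7% to 68.9%. Log2 fold changes of 9 genes turned positive under it: Anapc1 (0.14), Cdc16 (0.15), Cdc42bpg (0.16), Cdc5l (0.12), Cdk19 (0.19), Cdkn1b (0.22), Kif1b (0.091), Mcm3ap (0.13) and Mcmbp (0.15). With the R areas alone, Cdc14a (-0.048), Cdc16 (0.0083) and Cdc25a (-0.0083) changed sign, as did Cdc14a with DESeq2 (-0.00018) and RLE factors (-0.0017) and Kif3c without L4 and R5 (-0.0065). Leaving out 1 area gave -0.013 to 0.058 for Cdc14a, -0.32 to 0.040 for Cdc16, -0.023 to 0.075 for Cdk16 and -0.12 to 0.0081 for Cdkn1b. The cause was not tested. With the R areas alone the log2 fold change of E2f8 was 2.85, that of Melk 4.64 and the fitted value of Bub1 6.81. No paired analysis was possible because the groups share only the area name R2. Genes with few counts in normal cortex, such as Bub1, Ndc80 and Kif15, have the widest limits on their folds.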
